A study of Mus musculus with 8 samples.

Results

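The 10 genes described here encode the secreted and endoplasmic reticulum (ER) proteins that process, modify and crosslink collagen. They were taken by name for this known role, with earlier results of these data known: the lysyl oxidases *Lox*, *Loxl1*, *Loxl2*, *Loxl3* and *Loxl4*, the lysyl hydroxylases *Plod1*, *Plod2* and *Plod3*, the collagen chaperone *Serpinh1* and the procollagen processing enhancer *Pcolce*. All 10 were found among the 54532 genes of the deposited table and all 10 passed the filter on low values, which left 15708 genes for testing.

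New collagen chains are hydroxylated at lysines in the ER by the PLOD enzymes, and the folded triple helix is held by HSP47, the product of *Serpinh1*, until it leaves the ER. Outside the cell, proteases of the BMP1 family remove the C-propeptide with the help of PCOLCE, and the lysyl oxidases then oxidise lysines and hydroxylysines so that neighbouring collagen or elastin molecules become covalently joined. In the infarcted heart, fibroblasts use these steps to build the scar that replaces lost muscle.

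The cells were MICFs, cardiac fibroblasts taken on Day 6 from the infarcted area of hearts of C57BL/6 mice, for which the methods give 8-week-old males. All 4 groups carried the same tetracycline-inducible lentiviruses, labelled MGTMyoS overexpression, for MGT (*Mef2c*, *Gata4* and *Tbx5* on 1 construct), *Myocd*, *Sall4* and eGFP, and all received doxycycline (Dox). For the *in vivo* samples, infected cells were injected into mouse hearts at the time of coronary ligation, and the hosts were given the immunosuppressants tacrolimus, mycophenolate mofetil and methylprednisolone (TMM). For the *in vitro* samples, infected cells of the same kind stayed in culture, for which the methods give a medium with the TGF-β receptor inhibitor SB431542 and the JAK inhibitor baricitinib. The comparison therefore contains the heart, the host's drugs and the medium together, and these cannot be told apart. eGFP+ cells were isolated on Days 7 and 14, called 1 week and 2 weeks, with 2 libraries in each of the 4 groups. The paper's results give this sorting for both settings, but its RNA-seq methods name sorted eGFP+ cells and cultured cells. Whether the cultured cells were sorted is thus not certain. MICFs are a primary population and not a pure cell type, and no library of uninfected cells was analysed here.

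Each library held 12304242 to 14546904 fragments on genes, and the values are FPKM (fragments scaled by gene length and library size), which allow levels to be compared between genes. The sources do not say which animals or wells the replicates came from, so p-values measure the spread between these libraries, which may be technical. Of 8 fibroblast markers, *Pdgfra* was between 19.8 and 27.8 FPKM in every library, and the sum of the 8 was 3923 to 4383 FPKM *in vivo* and 1237 to 1389 *in vitro*. Summed macrophage markers (10 genes) were at 1810 to 2874 FPKM *in vivo* and 4566 to 5670 *in vitro*, of which *Lyz2* alone made up 975 to 1453 and 2921 to 4014. By the test used below, 1 of these 10 genes was higher *in vivo* at 1 week (*Fcgr1*) and 1 lower (*Lyz2*), and at 2 weeks 0 were higher and 5 lower. Summed endothelial markers (8 genes) were at 93.1 to 98.4 and 21.1 to 56.7, and cardiomyocyte markers (9 genes) at 15.8 to 46.1 and 159 to 1220. By the same test, 7 endothelial markers were higher *in vivo* at 1 week and 3 at 2 weeks, with 0 lower. Of the cardiomyocyte markers, 1 was higher (*Pln*) and 6 lower at 1 week, and 2 were higher (*Pln* and *Myl2*) and 7 lower at 2 weeks. Mural markers (6 genes) were at 99.5 to 150 FPKM *in vivo* and 81.9 to 104 *in vitro*, mesothelial markers (5 genes) at 11.5 to 28.8 and 180 to 407, and lymphocyte markers (5 genes) at no more than 1.58 in any library, with *Cd3d* listed at 0 in every *in vitro* library. Over both weeks the fibroblast, macrophage, endothelial, cardiomyocyte and mesothelial sums did not overlap between the settings and the mural and lymphocyte sums did, and their part in the results was not tested. In such bulk samples, fewer cells of a type and less RNA per cell cannot be told apart.

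At each week some, but not all, of the 10 genes were called higher in *in vivo* than in *in vitro* samples. A gene was called when limma, on log2(FPKM + 0.1), gave a Benjamini-Hochberg adjusted p under 0.01 and a change over 2-fold. At 1 week *Lox*, *Loxl1*, *Loxl3* and *Plod3* were called higher *in vivo*, which is 4 of the 10 genes, where 7.79% of all tested genes were called higher. At 2 weeks *Loxl4* and *Serpinh1* joined them, which is 6 of the 10, where 9.02% of all tested genes were called higher. With both weeks together, 5 of the 10 were called higher (*Lox*, *Loxl1*, *Loxl3*, *Loxl4* and *Plod3*), against 9.56% of all tested genes. With the deposited scaling, none of the 10 was called lower by limma in any of these comparisons. At an unadjusted p under 0.05, 0 were lower, where 25.2% (1 week), 28.6% (2 weeks) and 31.9% (both) of all tested genes were. At an adjusted p under 0.01 with no limit on the fold, 10 genes were higher *in vivo* at 1 week (14.7% of all tested genes). At 2 weeks 9 were (16.9%), with *Loxl2* the exception. These counts depended on the scaling. With quantile normalization at 1 week, *Serpinh1* (0.20 on the log2 scale, limma adjusted p = 0.069) and *Loxl2* (0.08, adjusted p = 0.34) did not pass. Without scaling between libraries they did not pass at 1 week either (0.40 and 0.02). *Plod1* did not pass at 2 weeks without that scaling (0.12, adjusted p = 0.097). The other genes counted here still passed in these comparisons. On the log2 scale the 10 genes were higher by a median of 0.84 (1 week) and 1.17 (2 weeks), where all tested genes together gave -0.006 and -0.003.

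**Figure D1:**
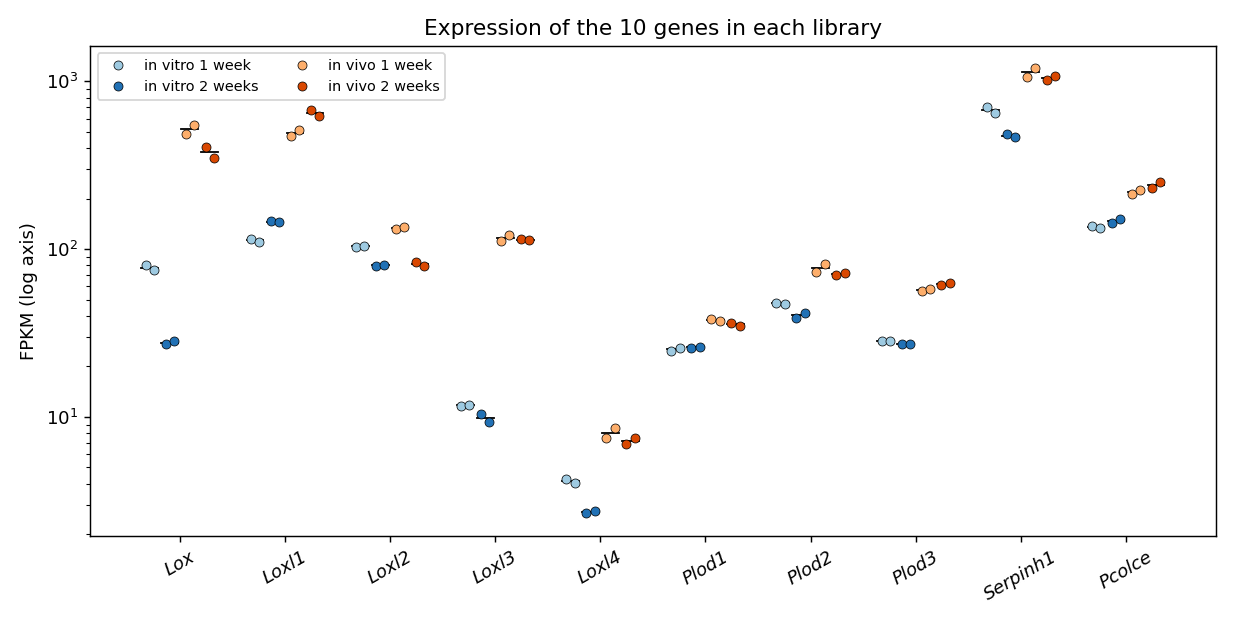
FPKM of the 10 genes in each of the 8 libraries, on a log axis, with 1 point per library and a line at the mean of each group of 2. Every *in vivo* point lies above every *in vitro* point of the same week except for *Loxl2* at 2 weeks.

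*Lox* encodes the founding lysyl oxidase, a copper enzyme that acts on fibrillar collagen and elastin. The gene (ENSMUSG00000024529) lies on the minus strand at chr18:52516069-52529867 of GRCm38. Its level was 486 and 553 FPKM in the *in vivo* libraries at 1 week and 80.1 and 74.7 *in vitro*. At 2 weeks it was 406 and 351 FPKM *in vivo* and 27.1 and 28.3 *in vitro*. The lowest *in vivo* library was thus above the highest *in vitro* library at both weeks. *Lox* was 6.69-fold higher *in vivo* at 1 week (log2 fold change 2.74, SE 0.096, limma adjusted p = 3.1e-06) and 13.6-fold higher at 2 weeks (3.76, SE 0.096, adjusted p = 8.9e-07).

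The *Lox* difference was wider at 2 weeks than at 1 week. The interaction contrast, which tests that widening, was 1.02 on the log2 scale (SE 0.14, limma adjusted p = 0.0080), and *Lox* was the only 1 of the 10 genes called in it, where 1.73% of all tested genes were called and 2.47% passed the adjusted p alone. The call was lost with a pseudocount of 1 (log2 value 0.99, under the 2-fold threshold) and without the filter on low values (limma adjusted p = 0.020). It was also lost with no intensity trend (0.031) and with the replicate number as a block (0.021). Over all genes these settings called 300, 72 (of 28005), 71 and 27 in turn, against 271 in the main fit. The call was lost too without any 1 of 7 of the 8 libraries (all but the second *in vivo* library of 2 weeks), where the value ran from 0.92 to 1.11. Each such fit leaves 1 library in a group, and over all genes it made fewer calls in this contrast than the main fit. Within the *in vitro* samples *Lox* fell by 1.48 on the log2 scale from 1 week to 2 weeks (SE 0.096, adjusted p = 3.1e-04). Within the *in vivo* samples the same step was -0.46 (SE 0.096, adjusted p = 0.023), which did not pass.

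*Loxl1* encodes the lysyl oxidase best known for elastic fibre maintenance. The gene (ENSMUSG00000032334) lies on the minus strand at chr9:58287738-58313186. It was at 470 and 512 FPKM *in vivo* and 115 and 111 *in vitro* at 1 week. At 2 weeks the libraries read 673 and 625 FPKM *in vivo* and 146 and 144 *in vitro*. Both groups were at a higher level at 2 weeks than at 1 week, and the distance between them stayed similar. On the log2 scale *Loxl1* was higher *in vivo* by 2.12 (SE 0.071, limma adjusted p = 2.5e-06) at 1 week and 2.16 (SE 0.071, adjusted p = 2.1e-06) at 2 weeks. The difference between the weeks was 0.04, with a 95% interval from -0.20 to 0.28.

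*Loxl3* encodes a lysyl oxidase with scavenger receptor domains, and it showed the largest fold change of the 10 genes at 1 week and the second largest at 2 weeks. The gene (ENSMUSG00000000693) lies on the plus strand at chr6:83034173-83052562. Its level was 111 and 121 FPKM *in vivo* and 11.6 and 11.8 *in vitro* at 1 week, and 114 and 113 *in vivo* and 10.4 and 9.36 *in vitro* at 2 weeks. The *in vivo* libraries sat in a narrow band at both weeks, far above the *in vitro* ones. *Loxl3* was 9.85-fold higher *in vivo* at 1 week (log2 fold change 3.30, SE 0.072, limma adjusted p = 5.5e-07) and 11.4-fold higher at 2 weeks (3.51, SE 0.072, adjusted p = 4.2e-07). It shares 535 exon bases with *Htra2* on the opposite strand, which was at 10.4 to 15.6 FPKM across the libraries. The sources used here do not say whether counting used strand. Reads in the shared part may thus not have been told apart, and the low *in vitro* level of *Loxl3* is uncertain.

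*Loxl4*, another family member with scavenger receptor domains, was the lowest of the 10 genes. The gene (ENSMUSG00000025185) lies on the minus strand at chr19:42593982-42612813. It was at 7.50 and 8.53 FPKM *in vivo* and 4.26 and 4.05 *in vitro* at 1 week, and at 6.88 and 7.50 *in vivo* and 2.66 and 2.74 *in vitro* at 2 weeks. These levels rest on 155 to 468 fragments per library. The log2 fold change was 0.93 at 1 week (SE 0.098, limma adjusted p = 4.0e-04), under the 2-fold threshold, and 1.38 at 2 weeks (SE 0.098, adjusted p = 5.1e-05), over it. Without the first *in vivo* library of 1 week the earlier value was 1.02 and was called. The 2 weeks were not shown to differ (0.45, adjusted p = 0.092).

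*Loxl2*, which encodes a lysyl oxidase known for crosslinking the collagen IV of basement membranes, did not follow the rest of the family. The gene (ENSMUSG00000034205) lies on the plus strand at chr14:69609068-69695834. Its level was 131 and 136 FPKM *in vivo* and 103 and 105 *in vitro* at 1 week. At 2 weeks it was 83.6 and 78.9 FPKM *in vivo* and 79.5 and 80.8 *in vitro*, so that the groups overlapped. *Loxl2* differed by 0.36 on the log2 scale at 1 week (SE 0.056, limma adjusted p = 0.0022). With quantile normalization this was 0.08 (adjusted p = 0.34), and without scaling between libraries 0.02 (adjusted p = 0.77). At 2 weeks the difference was 0.02 (adjusted p = 0.81), with a 95% interval from -0.11 to 0.15 that leaves out a change of 2-fold. From 1 week to 2 weeks the log2 difference was -0.71 *in vivo* (SE 0.056, adjusted p = 0.0010) and -0.37 *in vitro* (SE 0.056, adjusted p = 0.0052), both under the 2-fold threshold. The step between weeks was not called different between the groups (-0.34, adjusted p = 0.042).

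**Figure D2:**
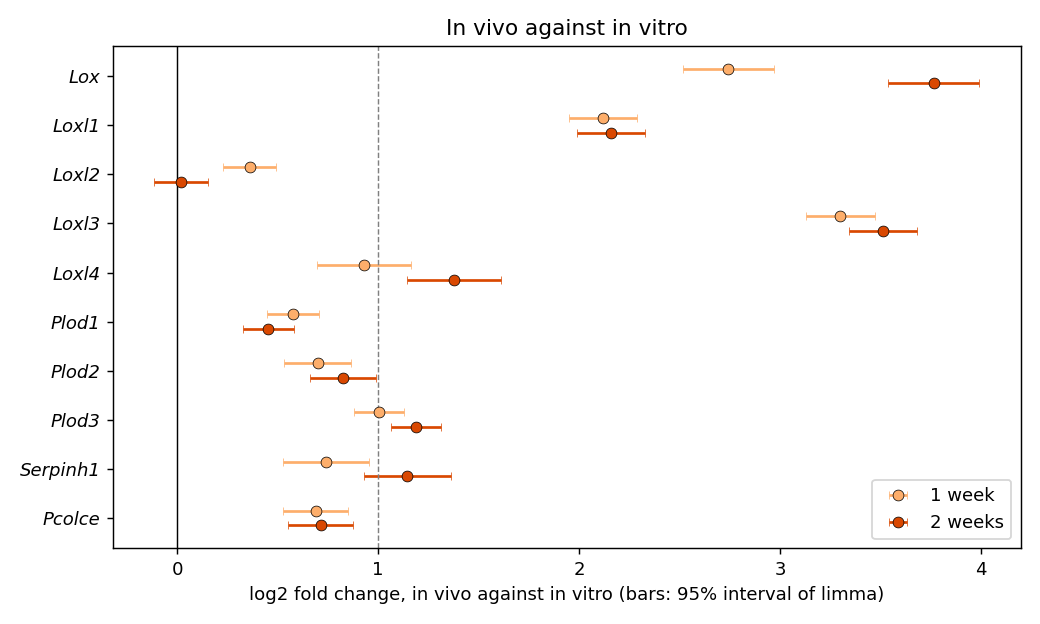
Log2 fold change of each gene, *in vivo* over *in vitro*, for both weeks, with the 95% interval from limma as bars; the dashed line marks 2-fold. *Lox* and *Loxl3* lie farthest to the right, and *Loxl2* at 2 weeks lies at 0.02.

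The makeup of the lysyl oxidase family, taken as each member's share of the family's summed FPKM, differed accordingly. At 1 week the family summed to 1268 ± 87.9 FPKM *in vivo* and 310 ± 5.11 *in vitro*, and at 2 weeks to 1230 ± 76.8 and 266 ± 0.30 (mean ± SD, n = 2). At 1 week *Lox* held 40.9% ± 0.89 of the sum *in vivo* and 25.0% ± 0.83 *in vitro*, and at 2 weeks 30.7% ± 1.25 and 10.4% ± 0.34 (SD, n = 2). At 1 week *Loxl2* held 10.5% ± 0.46 *in vivo* and 33.5% ± 1.11 *in vitro*, and at 2 weeks 6.61% ± 0.14 and 30.2% ± 0.36. *Loxl3* held 9.16% and 3.77% at 1 week and 9.25% and 3.72% at 2 weeks. *Loxl1* took a similar share in both settings, with 38.8% *in vivo* against 36.4% *in vitro* at 1 week and 52.8% against 54.6% at 2 weeks, and *Loxl4* held no more than 1.36% in any library. These shares do not depend on the scaling between libraries and were not tested. Counted in fragments, without division by gene length, *Loxl2* rather than *Loxl1* held the largest share *in vitro* at 1 week, with 40.7% against 27.0%.

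**Figure D3:**
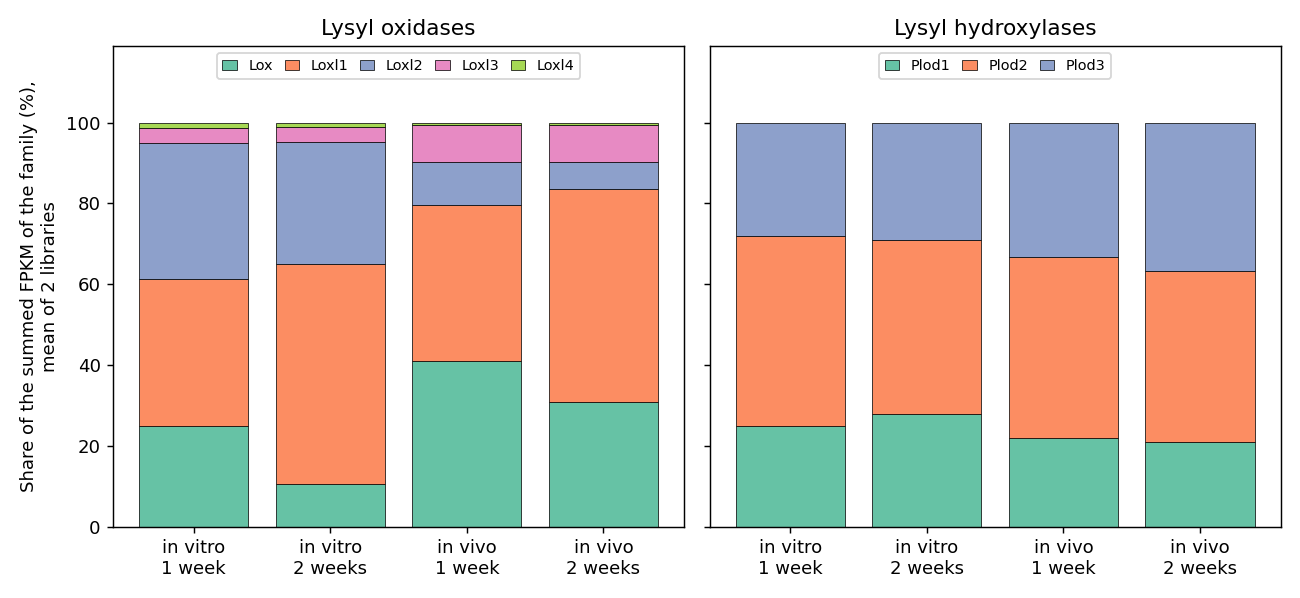
Share of each member in the summed FPKM of the lysyl oxidases (left) and the lysyl hydroxylases (right), in percent, as the mean of 2 libraries per group. *Lox* and *Loxl3* take larger shares *in vivo*, *Loxl2* takes 33.5% and 30.2% *in vitro*, and the lysyl hydroxylases differ less.

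The lysyl hydroxylases set how many hydroxylysines a collagen carries, and their differences were smaller than those of *Lox*, *Loxl1* and *Loxl3*. At 1 week their FPKM summed to 172 ± 6.85 *in vivo* and 101 ± 0.26 *in vitro*, and at 2 weeks to 169 ± 1.89 and 93.3 ± 2.34 (mean ± SD, n = 2). *Plod2* had the largest share in all 4 groups, between 42.2% and 46.9% as group means.

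*Plod3*, which encodes a lysyl hydroxylase that also adds sugars to hydroxylysine, was the only 1 of the 3 called. The gene (ENSMUSG00000004846) lies on the plus strand at chr5:136987019-136996648. It was at 56.0 and 58.2 FPKM *in vivo* and 28.4 in both *in vitro* libraries at 1 week. At 2 weeks it was at 60.8 and 63.0 FPKM *in vivo* and 27.0 and 27.3 *in vitro*. The groups stood well apart relative to their replicates. *Plod3* was higher *in vivo* by 1.00 on the log2 scale at 1 week (SE 0.052, limma adjusted p = 1.7e-05), just over the threshold, and 1.19 at 2 weeks (SE 0.052, adjusted p = 6.2e-06). At 1 week the call was lost with a pseudocount of 1 (0.98), with quantile normalization (0.93), without scaling between libraries (0.66) and without the second *in vivo* library (0.98). *Plod3* shares 529 exon bases with *Znhit1* on the opposite strand, at 11.5 to 15.3 FPKM. Whether counting used strand is not given, so reads there may not have been told apart.

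*Plod2* encodes the hydroxylase of the collagen telopeptides, whose product leads to the pyridinoline crosslinks typical of fibrosis. The gene (ENSMUSG00000032374) lies on the plus strand at chr9:92542223-92608428. It was at 72.9 and 81.3 FPKM *in vivo* and 47.6 and 47.2 *in vitro* at 1 week, and at 70.3 and 72.3 *in vivo* and 38.8 and 41.6 *in vitro* at 2 weeks. The log2 fold change was 0.70 (SE 0.070, limma adjusted p = 3.0e-04) and 0.82 (SE 0.070, adjusted p = 1.1e-04), so *Plod2* was higher *in vivo* by less than 2-fold at both weeks.

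*Plod1* encodes the hydroxylase of lysines in the collagen helix. The gene (ENSMUSG00000019055) lies on the minus strand at chr4:147909753-147936767. It was at 38.2 and 37.3 FPKM *in vivo* and 24.8 and 25.7 *in vitro* at 1 week, and at 36.3 and 34.8 *in vivo* and 25.7 and 26.1 *in vitro* at 2 weeks. On the log2 scale these are differences of 0.58 (SE 0.054, limma adjusted p = 2.3e-04) and 0.45 (SE 0.054, adjusted p = 5.4e-04). The hydroxylases thus ran in the order *Plod3*, *Plod2*, *Plod1* by fold change at both weeks, with *Plod3* alone over 2-fold.

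*Serpinh1*, the gene of the collagen-specific ER chaperone HSP47, was the most abundant of the 10 genes in every library. The gene (ENSMUSG00000070436) lies on the minus strand at chr7:99345376-99353239. It was at 1066 and 1197 FPKM *in vivo* and 707 and 646 *in vitro* at 1 week. At 2 weeks it was at 1018 and 1075 FPKM *in vivo* and 482 and 464 *in vitro*. The *in vivo* level was similar at both weeks while the *in vitro* level was lower at 2 weeks. The log2 fold change was 0.74 at 1 week (SE 0.091, limma adjusted p = 7.7e-04) and 1.15 at 2 weeks (SE 0.091, adjusted p = 8.2e-05), and only the latter was called. The call at 2 weeks was lost with quantile normalization (0.70) and without scaling between libraries (0.81). The step from 1 week to 2 weeks was -0.51 *in vitro* (SE 0.091, adjusted p = 0.0089) and -0.11 *in vivo* (adjusted p = 0.46), and the difference between these steps did not pass (0.40, adjusted p = 0.099).

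*Pcolce* encodes the secreted protein that speeds removal of the C-propeptide by BMP1. The gene (ENSMUSG00000029718) lies on the minus strand at chr5:137605103-137613784. It was at 212 and 224 FPKM *in vivo* and 138 and 133 *in vitro* at 1 week, and at 232 and 251 *in vivo* and 143 and 151 *in vitro* at 2 weeks. The differences were 0.69 on the log2 scale at 1 week (SE 0.068, limma adjusted p = 2.8e-04) and 0.71 at 2 weeks (SE 0.068, adjusted p = 1.9e-04), higher *in vivo* by less than 2-fold. The difference between the weeks was 0.02, with a 95% interval from -0.20 to 0.25.

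Between 1 week and 2 weeks, 0 of the 10 genes were called *in vivo* and 1 *in vitro* (*Lox*, lower), where 2.18% and 3.81% of all tested genes were called. *In vivo*, 3 of the 10 had an unadjusted p under 0.05 in limma, where 31.7% of all tested genes did, and limma voom on recovered fragments also called 0, where it called 3.21% of all tested genes. By the adjusted p alone, the genes that differed between weeks were *Loxl2 in vivo* and *Lox*, *Loxl2*, *Loxl4* and *Serpinh1 in vitro*, all lower at 2 weeks, where 4.69% and 9.78% of all tested genes passed in either direction. *Loxl1* was higher at 2 weeks in both groups, by 0.40 *in vivo* and 0.36 *in vitro* on the log2 scale, but neither passed (limma adjusted p = 0.013 in each). The lowest *in vivo* library exceeded the highest *in vitro* one in 10 of the 10 genes at 1 week, in 9 at 2 weeks and in 9 with both weeks pooled, and the same was true of 36.2%, 36.8% and 20.5% of all tested genes. Replicates of a gene differed by at most 1.16-fold, for *Lox in vivo* at 2 weeks.

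The fibrillar collagen substrates of these enzymes differed by more than most of the 10 genes did. At 1 week the 11 fibrillar collagen genes summed to 10778 ± 717 FPKM *in vivo* and 2851 ± 51.4 *in vitro*, and at 2 weeks to 8591 ± 1022 and 1484 ± 26.4 (mean ± SD, n = 2). This sum was 3.78-fold higher *in vivo* at 1 week and 5.79-fold higher at 2 weeks, so a gene with a smaller rise is lower when set against it. Set against this sum, 3 of the 10 genes were at a higher level *in vivo* at 1 week and 2 at 2 weeks. At 1 week *Lox* was at 4.81 FPKM per 100 FPKM of fibrillar collagen *in vivo* and 2.71 *in vitro*, and at 2 weeks at 4.41 and 1.87. *Loxl3* was at 1.08 and 0.41 at 1 week and at 1.33 and 0.67 at 2 weeks. *Loxl1* was at 4.56 and 3.96 at 1 week but at 7.59 and 9.79 at 2 weeks, and with *Col1a1* alone as the denominator it was lower *in vivo* at 1 week too (0.84 times the *in vitro* ratio).

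The other 7 genes were lower per unit of fibrillar collagen in the *in vivo* samples at both weeks. *Loxl2* showed the largest such gap, at 1.24 FPKM per 100 *in vivo* against 3.64 *in vitro* at 1 week, and at 0.95 against 5.40 at 2 weeks. The sum holds neither collagen IV, for which *Loxl2* is known, nor elastin. *Serpinh1* was at 10.5 and 23.7 at 1 week and at 12.3 and 31.9 at 2 weeks. For *Loxl4*, *Plod1*, *Plod2*, *Plod3* and *Pcolce* the *in vitro* ratio was 1.88 to 2.52 times the *in vivo* ratio at 1 week and 2.15 to 4.20 times at 2 weeks. No ratio of the 10 genes overlapped between the groups of a week, and the same was true of 93.4% (1 week) and 93.9% (2 weeks) of all tested genes set against the same sum. On this scale *Plod3* at 1 week and *Loxl1* at 2 weeks were lower *in vivo*. Their log2 fold changes still exceeded those of 87.9% and 95.5% of all tested genes, so most tested genes are lower on this scale too. These ratios are descriptions, share a denominator and were not tested.

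**Figure D4:**
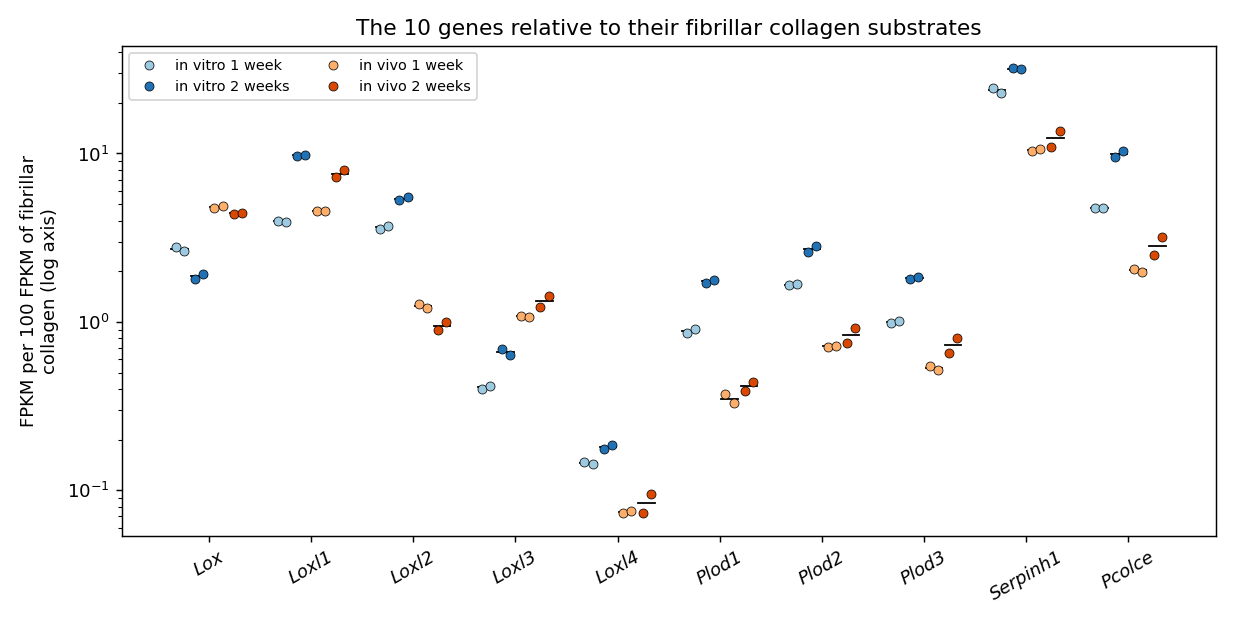
FPKM of each gene per 100 FPKM of the 11 fibrillar collagen genes, on a log axis, with 1 point per library and a line at the group mean. *Lox* and *Loxl3* lie higher *in vivo* at both weeks, *Loxl1* changes order between weeks, and the other 7 genes lie lower *in vivo*.

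Of the 11 fibrillar collagen genes, 10 were called higher *in vivo* at each week and none lower, with a median log2 fold change of 2.21 and 2.70. For this list and those below, 7.79% of all tested genes were called higher and 5.07% lower at 1 week. At 2 weeks these shares were 9.02% and 8.05%. *Col1a1*, the main chain of scar collagen, was higher by 2.36 (SE 0.11, limma adjusted p = 1.2e-05) at 1 week and 3.0 (SE 0.11, adjusted p = 3.6e-06) at 2 weeks. *Col3a1* was higher by 1.43 and 2.10. The largest differences were in low genes, *Col24a1* at 1 week (4.34, with 4.55 FPKM *in vivo* and 0.14 *in vitro* as group means) and *Col2a1* at 2 weeks (3.83, with 3.81 and 0.17). *Col11a2*, at 1.00 to 2.05 FPKM as group means, was the exception among the 11, with 0.64 (adjusted p = 0.065) and 0.90 (adjusted p = 0.016).

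Among 7 genes of the proteases that cut procollagen propeptides and their enhancer *Pcolce2*, 5 passed the filter and 3 of these were called higher *in vivo* at each week. *Bmp1*, the C-proteinase that PCOLCE assists, was at 117 ± 3.81 FPKM *in vivo* and 29.9 ± 0.70 *in vitro* (SD, n = 2) in the first week, a log2 fold change of 1.97, and 1.92 at 2 weeks. *Adamts2*, an N-proteinase, was higher by 2.27 and 3.05 and *Adamts3* by 1.47 and 1.45. *Adamts14* (0.52 and 0.54) and *Pcolce2* (-0.30 and 0.50) were not called, and *Tll1* and *Tll2* were under the filter.

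Of 22 other genes for collagen modification and folding in the ER, 7 were called higher *in vivo* at 1 week and 8 at 2 weeks, and none lower, with a median log2 fold change of 0.81 and 0.90. *P4ha3*, an α-subunit of prolyl 4-hydroxylase, had the largest difference of the list at both weeks and was higher by 3.19 and 3.52 (limma adjusted p = 1.7e-06 and 9.6e-07), and the prolyl 3-hydroxylase gene *P3h2* by 2.01 and 2.67. The paralogue *P4ha1* was at -0.46 and 0.07 and was not called at either week. *Colgalt2*, a collagen galactosyltransferase, was higher by 2.94 and 2.10, and the general ER chaperone *Hspa5* by 1.22 and 1.16. The ER partners of the lysyl hydroxylases were mixed. *Fkbp10* (0.94 and 0.79), *Ppib* (0.76 and 0.67) and *P3h4* (-0.36 and -0.15) were under 2-fold. *P3h3* was called higher *in vivo* at both weeks (1.45 and 1.73, limma adjusted p = 6.2e-06 and 2.4e-06).

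Of 12 genes grouped here as matrix partners of the lysyl oxidases, 11 were called higher *in vivo* at 1 week and 10 at 2 weeks. None was called lower, and the medians were 1.82 and 2.0. *Eln*, the elastin gene, was at 633 ± 73.1 FPKM *in vivo* and 79.5 ± 2.20 *in vitro* (SD, n = 2) in the first week, a log2 fold change of 2.99, and at 1341 ± 56.6 and 132 ± 5.27 in the second, a log2 fold change of 3.35. *Postn*, the gene of periostin, was higher by 3.46 and 3.56, and *Ltbp4*, which guides elastic fibre assembly, by 2.69 and 2.90. *Efemp2*, the gene of fibulin-4, which brings lysyl oxidase to tropoelastin, was not called at either week (0.48 and 0.40), and *Thbs1* was called at 1 week alone (1.15, then 0.32).

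**Figure D5:**
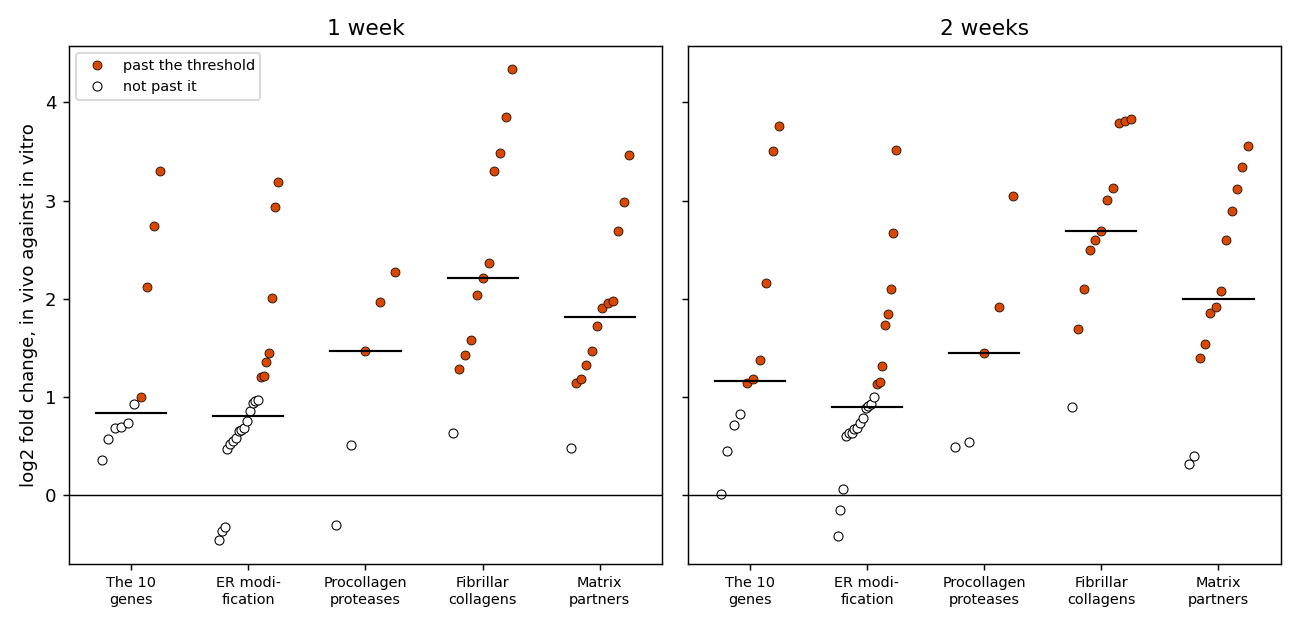
Log2 fold change, *in vivo* over *in vitro*, for 1 week (left) and 2 weeks (right), of the 10 genes and of the 4 lists of related genes, with 1 point per tested gene, filled where called, and a line at the list's median. The fibrillar collagens have the highest medians, 2.21 and 2.70, and no filled point lies under 0.

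Of the 8 fibroblast markers, 3 were called higher *in vivo* at 1 week and 4 at 2 weeks. *Col1a2* (2.04 and 2.60 on the log2 scale), which is also among the fibrillar collagens above, and the genes of the collagen-binding proteoglycans *Dcn* (1.16 and 1.36) and *Lum* (2.56 and 2.06) were called at both weeks, and the vimentin gene *Vim* at 2 weeks alone (0.90, then 1.46). *Lum* at 1 week and *Col1a2* at 2 weeks thus had larger values than *Loxl1*, and *Lox* and *Loxl3* had larger values than all 8 markers at both weeks. *Pdgfra* differed by 0.06 at 1 week and 0.20 at 2 weeks on the log2 scale (limma adjusted p = 0.46 and 0.028), *Tcf21* by 0.32 and 0.35 (adjusted p = 0.042 and 0.025), *Ddr2* by -0.62 and -0.01 (adjusted p = 6.4e-04 and 0.89) and *Thy1* by -0.75 and -0.36 (adjusted p = 0.0019 and 0.033), and none of these 4 was called.

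The deposited FPKM already hold a scaling between libraries. Without it, the median of the log2 fold changes over all genes was -0.34 at 1 week and -0.33 at 2 weeks, and the log2 fold changes of *Plod3* were 0.66 and 0.86, of *Serpinh1* at 2 weeks 0.81, and of *Loxl2* at 2 weeks -0.31, which is close to that median. *Plod3* was then called at neither week and *Serpinh1* not at 2 weeks. *Loxl2* was then lower *in vivo* by less than 2-fold at 2 weeks (limma adjusted p = 0.0018) and over both weeks (-0.15, adjusted p = 0.0093). *Lox*, *Loxl1* and *Loxl3* were still called higher at both weeks, and the 10 genes gave 3 calls at 1 week and 4 at 2 weeks, where 5.76% and 6.54% of all tested genes were called higher.

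Upstream sequences are shown for *Loxl4* and *Serpinh1*, because these were the genes called at 2 weeks but not at 1 week. The weeks were not shown to differ for either gene in the interaction contrast (limma adjusted p = 0.092 and 0.099). RefSeq (GRCm38.p6) promoter entries matched 5 of the 10 genes (*Loxl4*, *Plod1*, *Plod3*, *Serpinh1* and *Pcolce*). The 250 bases before the RefSeq start are given 5′ to 3′ on the strand of the gene, chr19:42612807-42613056 (minus strand) for *Loxl4* and chr7:99353240-99353489 (minus strand) for *Serpinh1*. Capitals mark matches on either strand to 4 motifs: the heat shock element GAANNTTC, the hypoxia response core ACGTG, the Smad box CAGAC and the GC box GGGCGG.
Loxl4: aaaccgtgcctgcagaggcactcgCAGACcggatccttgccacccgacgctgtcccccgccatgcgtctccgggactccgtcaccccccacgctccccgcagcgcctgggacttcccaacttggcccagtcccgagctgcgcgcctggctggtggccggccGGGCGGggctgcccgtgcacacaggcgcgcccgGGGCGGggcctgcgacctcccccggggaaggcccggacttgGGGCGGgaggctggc
Serpinh1: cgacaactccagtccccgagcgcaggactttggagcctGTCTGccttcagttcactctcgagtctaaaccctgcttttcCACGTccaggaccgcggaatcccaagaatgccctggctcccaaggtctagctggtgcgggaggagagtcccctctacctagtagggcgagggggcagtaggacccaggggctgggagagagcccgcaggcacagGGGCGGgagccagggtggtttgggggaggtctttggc

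The *Loxl4* sequence held 1 Smad box, at -226 from the start, and 3 GC boxes, at -89, -56 and -15. The *Serpinh1* sequence held 1 Smad box at -212, 1 hypoxia core at -171 and 1 GC box at -37, where -1 is the base before the start and positions are those of the first base of a match. Neither held a heat shock element. Among 32851 promoter entries, a heat shock element was found in 6.69%, a hypoxia core in 16.6%, a Smad box in 42.2% and a GC box in 32.7%. The matches did not overlap each other and describe the letters alone. The GC content was 76.0% for *Loxl4* and 63.6% for *Serpinh1*, where the median of all entries was 52.4%.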

How the data were processed

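The data are mRNA-seq libraries of infected MICFs, 2 per group. The deposited values are FPKM for 54532 genes, made for the authors by a sequencing provider. The submitters' processing notes name CASAVA, HISAT2 2.0.5 and mm10, and the counting tool and strand setting are not given in the sources used here. Coordinates are those of the deposited table. Of 54409 identifiers shared with GENCODE vM21 (GRCm38), 98.3% had the same start and end. FPKM multiplied by gene length came out as whole multiples of 1 step for 100% of values (tolerance 0.05), which gave the fragments per gene, with a median of 12919718 per library. The library size behind the FPKM was 0.863 to 0.915 times the fragments *in vivo* and 1.09 to 1.15 times *in vitro*, so a scaling is included.

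Genes with at least 0.5 FPKM in at least 2 libraries (15708) were fitted on log2(FPKM + 0.1) with limma 3.58.1 in R 4.3.3, using all 8 libraries in 4 groups and an intensity trend. This scale understates changes of low genes. A call needed a Benjamini-Hochberg adjusted p under 0.01, adjusted over all tested genes, and a change over 2-fold. The procedure was tested on simulated data. DESeq2, the authors' tool, takes counts and was not run on FPKM. Alternatives were other pseudocounts, filters, scalings, thresholds and variance settings, limma voom on the fragments, the replicate number as a block, and fits without each single library.

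The 10 genes and all lists were chosen with earlier results of these data known. The named genes are the 10 genes and the genes of 4 lists of related function and of the cell type lists. For genes with a pattern like a member's, distance was measured on log2(FPKM + 0.1), each gene centred on its mean over 8 libraries. The other software was Python 3.11.15 with pandas 2.3.3, numpy 2.4.6 and matplotlib 3.10.9.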

Additional observations from a re-analysis of the deposited data

Results flagged for a closer look

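*Lox* was singled out because its difference between settings was called different at the 2 time points. The interaction contrast was 1.02 on the log2 scale (SE 0.14, limma adjusted p = 0.0080), from 2.74 at 1 week to 3.76 at 2 weeks, with the *in vitro* libraries at 80.1 and 74.7 FPKM at 1 week and 27.1 and 28.3 at 2 weeks. The call was lost with a pseudocount of 1 (0.99), without the filter on low values (limma adjusted p = 0.020), with no intensity trend (0.031) and with the replicate block (0.021). Over all genes these settings called 300, 72 (of 28005), 71 and 27 in turn, against 271 in the main fit. The call was also lost without any 1 of 7 of the 8 libraries. Each such fit leaves 1 library in a group, and over all genes it made fewer calls in this contrast than the main fit. The other 9 genes did not pass this contrast. No group has the 4 libraries that a test for a single outlying library would need.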

How the results depend on the processing

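The higher level of *Lox*, *Loxl1* and *Loxl3* *in vivo* was called at both weeks under every alternative run. Other counts of the 10 genes depended on the settings. With a threshold of 1.5-fold in place of 2-fold, 8 genes were called at 1 week (11.6% of all tested genes), 8 over both weeks (14.7%), 1 between weeks *in vivo* (3.81%) and 2 between weeks *in vitro* (7.28%). Without the scaling between libraries, 3 were called over both weeks (6.92%). The difference between weeks called 0 genes with a pseudocount of 1 (*Lox* 0.99), without a filter, with no intensity trend and with the replicate block. Over all genes these settings called 300, 72 (of 28005), 71 and 27 in turn, against 271 in the main fit. Without the first *in vivo* library of 2 weeks *Lox* was at 0.92. The log2 fold change of *Loxl2* changed sign at 2 weeks with quantile normalization (-0.0527), with no scaling (-0.31) and among the fits with a library left out (-0.0231 to 0.0605), and over both weeks with no scaling (-0.15). Small differences between weeks also changed sign: *Loxl1* (-0.0215 to 0.102) and *Pcolce* (-0.0338 to 0.0832) in the interaction contrast and *Loxl3* *in vivo* (-0.0881 to 0.0289) with a library left out, *Pcolce* *in vivo* (-0.0594) and *in vitro* (-0.165) and *Plod1* *in vitro* (-0.0982) with quantile normalization, and *Plod1* *in vitro* (-0.0132) with no scaling. *Loxl4* over both weeks fell under 2-fold with a pseudocount of 1 (0.97) and with no scaling (0.82). The *Loxl1* ratio at 1 week turned from 1.15 to 0.84 with *Col1a1* as denominator. The cause of these changes was not tested. With no scaling, 36.7% of called genes were higher *in vivo* at 1 week and 32.9% at 2 weeks, where the values above gave 60.6% and 52.8%. Same-numbered libraries deviated with a correlation of -0.020 (1 week) and -0.022 (2 weeks) across genes, which gave no ground to pair them, and the replicate block changed no count but that of the difference between weeks. Depth limits *Loxl4* most, with 155 fragments in its lowest library.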

Other observations

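For 4 of the 10 genes the tested genes with the most similar pattern over the 8 libraries were listed, by Euclidean distance between log2(FPKM + 0.1) values centred on each gene's mean, where a smaller distance is more alike. *Loxl1* lay nearest to *Chpf* (0.159), *Plxdc2* (0.223) and *Ltbp3* (0.286), and *Plod2* nearest to *Hsp90b1* (0.0997), *Uxs1* (0.127) and *Sec24d* (0.155). *Serpinh1* lay nearest to *Pdia4* (0.196), *Cmip* (0.197) and *Mapk7* (0.197), and *Pcolce* to *Xbp1* (0.156), *Papss1* (0.160) and *Pros1* (0.169). *Hsp90b1* and *Pdia4* encode ER folding proteins, and *Xbp1* encodes a transcription factor of the ER stress response. *Pdia4* lay hardly nearer to *Serpinh1* than *Cmip* and *Mapk7* did, and the other genes listed were not sorted by function. The distances are descriptions over libraries that share groups and were not tested.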
